A study of Mus musculus with 3 samples.

Results

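Tardbp, Ewsr1, Taf15, Matr3 and Elavl1 encode RNA-binding proteins of the nucleus, and they were chosen by name. Their poly(A) sites were taken as the listed sites on the strand of the gene, from its start to 1000 bases past its end in GENCODE M21 (mm10). The 5 genes held 86 of the 178115 listed sites: 25 in Matr3, 18 in Taf15, 16 in Tardbp, 14 in Elavl1 and 13 in Ewsr1. The sites came from PAS-seq, which reads the 3′ ends of polyadenylated RNA, in embryonic stem (ES) cells of the mouse line F121-9, a hybrid that carries 1 CAST and 1 129 genome. The series has 1 group of 3 libraries with no treatment named, replicates 1 to 3 at passage 14, each made from 500 ng of RNA, so no conditions could be compared. Separate cultures are not named, so p-values measure the spread between these libraries, part of which may be technical.

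Tardbp encodes TDP-43, which binds GU-rich RNA, represses cryptic exons and lowers its own mRNA by binding the 3′ UTR. Ewsr1 and Taf15 belong to the FET family, whose proteins join a low-complexity domain to RNA-binding domains and associate with transcribing RNA polymerase II. Matr3 is a nuclear matrix protein that binds RNA and takes part in splicing, and Elavl1 (HuR) binds AU-rich elements in 3′ UTRs and stabilises mRNAs. Where the end of an mRNA is cut decides how much of its 3′ UTR, or even of its coding sequence, the message keeps.

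The sequences of the main sites of Tardbp, Ewsr1, Taf15 and Elavl1 are shown because the hexamer before a site is the signal that the cleavage machinery recognises. Each line gives the 30 bases that end at the site, 5′ to 3′ on the strand of the gene, from the RefSeq GRCm38 genome, with the signal hexamer (AATAAA, or its variants ATTAAA and TATAAA) in capitals.
Tardbp, most used site, chr4:148616726-148616755, minus strand: tttgcttcaAATAAActtatttgaaaagtt
Tardbp, next site, chr4:148615571-148615600, minus strand: gaggttttagaAATAAActacttggcaaag
Ewsr1, most used site, chr11:5069676-5069705, minus strand: aaatgttTATAAActgtcatcctcctcctc
Ewsr1, internal terminal exon, chr11:5080421-5080450, minus strand: gtgtaacATTAAAgtgtaaactttgtgttt
Taf15, most used site, chr11:83506713-83506742, plus strand: actgcAATAAAagctgcttgttttttgtgg
Elavl1, most used site, chr8:4288345-4288374, minus strand: aagaccATTAAAtttgattttgttttgctc
The signals differed between the genes: both sites of Tardbp and the site of Taf15 had AATAAA, the main site of Elavl1 had ATTAAA, and that of Ewsr1 had TATAAA. The signal began 19 to 25 bases before the site in these 6 sequences. They are those of the reference genome, and differences in the genomes of the hybrid line were not checked. RPM stands for reads scaled to the library total. Of 7553 autosomal protein-coding genes whose mean reached 10 RPM, 66.4% had AATAAA in the 40 bases that end at their most used site. Another 15.3% had ATTAAA without AATAAA, as Elavl1 did, and 18.3% had neither, as Ewsr1 and Matr3 did.

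The libraries had 10147672, 13513327 and 13040620 reads at listed sites, of which the 5 genes held 5453, 7225 and 6442 in replicates 1, 2 and 3. Replicate 3 had 0 reads on X, Y and the mitochondrial genome, and the 5 genes lie on autosomes. The 6 ES cell markers were all read and summed to 1612 to 1955 RPM per library. The 4 endoderm markers summed to 1.71 to 4.91 RPM. The 6 neural markers summed to 80.3, 75.3 and 161 RPM, highest in replicate 3, most of it Map2 and Tubb3, with Pax6 at 0 in replicates 1 and 3. The 6 fibroblast markers summed to 81.4, 50.8 and 132 RPM, most of it Thy1, with Dcn and Postn at 0 in every library. The collagen genes Col1a1 and Col1a2 were highest in replicate 3: Col1a1 had 0.090, 0.61 and 6.11 RPM, Col1a2 had 0, 1.077 and 3.27, while Col3a1 had 0, 0.27 and 0. The part of these cells in the values below was not tested, and in such bulk samples fewer cells of a type and less RNA per cell cannot be told apart. The sources used here mention no molecular identifiers, so reads need not be independent molecules and limits from 0 reads cover counting alone.

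The summed level of a gene over all its sites followed the order Taf15, Elavl1, Ewsr1, Matr3 and Tardbp. One read marks one 3′ end, so RPM levels were compared between genes without scaling to length. Taf15 had 187, 173 and 219 RPM in replicates 1, 2 and 3 (193 ± 23.6, SD, n = 3). Elavl1 had 136, 138 and 96.0 RPM (123 ± 23.7). Ewsr1 had 99.0, 93.0 and 60.6 RPM (84.2 ± 20.6). Elavl1 and Ewsr1 were both lowest in replicate 3, the library in which Taf15 was highest. Matr3 had 35.4, 43.9 and 48.8 RPM (42.7 ± 6.79), and Tardbp had 33.8, 38.7 and 33.4 RPM (35.3 ± 2.94). Taf15 lay above 90.1% of the 7553 genes and Tardbp above 46.4%, against a median gene of 39.0 RPM.

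**Figure D1:**
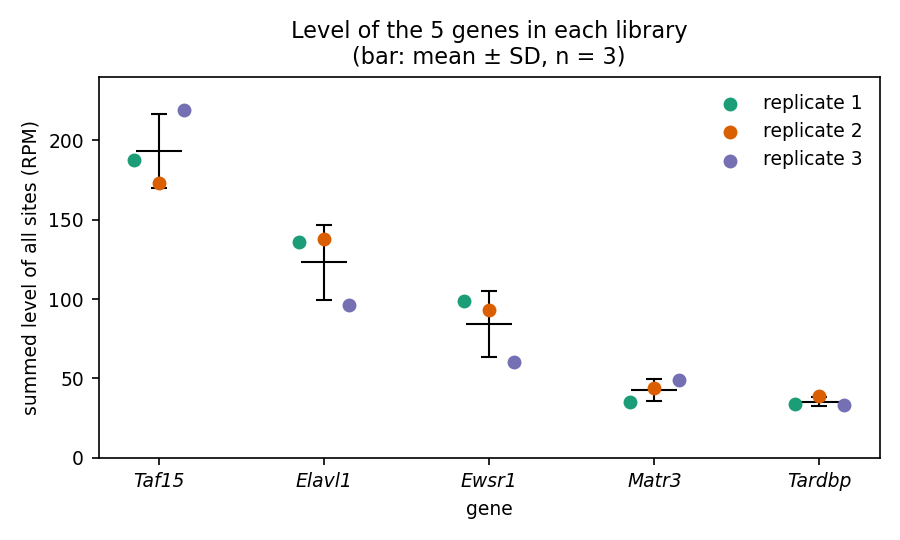
Summed level of each gene (RPM, vertical axis) in replicates 1 to 3 (coloured points), with the mean and SD as black bars. Taf15 lies above the other genes in every library, the ranges of Elavl1 and Ewsr1 overlap, and so do those of Matr3 and Tardbp.

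The order was the same in 3 of 3 libraries for all 10 pairs of genes. The libraries did not overlap for 8 pairs. They overlapped for the neighbours Elavl1 and Ewsr1 and for Matr3 and Tardbp. Within libraries, the ratio of Elavl1 to Ewsr1 varied little (log2 0.56 ± 0.10, SD, n = 3, 1.48-fold), since both genes were lowest in replicate 3. The ratio of Matr3 to Tardbp was about as large as its spread (0.26 ± 0.25, 1.20-fold). An exact two-sided sign-flip test over 3 libraries gave p = 0.25 for each pair and 0.25 after Benjamini-Hochberg adjustment over the 10 pairs, the smallest p that 3 libraries allow. The 5.46-fold ratio of Taf15 to Tardbp (log2 2.45 ± 0.28, SD, n = 3) was the largest of the 10.

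Replicate 3 moved the genes in different directions. Against the mean of replicates 1 and 2, Ewsr1 was at -0.66 and Elavl1 at -0.51 (log2), Tardbp at -0.12, Taf15 at 0.28 and Matr3 at 0.30. The same difference over the 7553 genes had a median of 0.15, with 10% of genes under -0.38 and 10% over 0.65. Ewsr1 and Elavl1 thus lay below the lower of these bounds, and the other 3 between them. A scale of autosomal reads leaves out X, Y and the mitochondrial genome, where replicate 3 had no reads. On that scale the median was 0.01, Ewsr1 was at -0.80, Elavl1 at -0.65, Tardbp at -0.26, Taf15 at 0.14 and Matr3 at 0.16.

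The genes whose levels were nearest over the 3 libraries, by Euclidean distance of log2(RPM + 0.1) among 15346 other protein-coding genes, were Pla2g6 for Tardbp, Smyd2 for Ewsr1, Ctsa for Taf15, Plpbp for Matr3 and Iars2 for Elavl1. The distances ran from 0.039 for Plpbp to 0.15 for Iars2.

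Tardbp spread its reads over a long last exon. Its most used site, at chr4:148616726, had 23.5, 29.2 and 16.3 RPM, or 69.3%, 75.5% and 48.7% of the gene (64.5% ± 14.01, SD, n = 3). The site lies 4344 bases before the annotated gene end, and 1535 bases after the stop codon of Tardbp-202, the transcript of 414 residues. The next site, 1155 bases downstream at chr4:148615571, had 6.68, 1.95 and 7.96 RPM, or 19.7%, 5.04% and 23.8% of the gene (16.2% ± 9.88). The library with the highest share at the first site, replicate 2, had the lowest share at the second. No listed site lay within 100 bases of the annotated end of Tardbp. The site nearest to that end, 854 bases before it, had 8.09% of the gene in replicate 3 and no read in the others. The most distal site read in every library, at chr4:148615470, carried 3.26% ± 2.19. All sites past the most used one together held 22.9%, 7.65% and 46.6% of the gene (25.7% ± 19.6). In replicate 3 that was close to the 48.7% at the most used site. The annotation places several splice forms of the last exon over the first site, including forms subject to nonsense-mediated decay, and 3′ end reads cannot tell them apart.

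Tardbp favoured the proximal site of this pair. On the scale of log2(RPM + 0.05), which understates ratios of rarely used sites, the distal over proximal ratio was -2.23 (SE 0.54, limma adjusted p = 0.0040), with the proximal site higher in 3 of 3 libraries. The test compared the most distal with the most proximal terminal exon site of at least 5% in each of 5650 autosomal genes with at least 50 reads, and calls needed an adjusted p under 0.05 and a 2-fold ratio. The proximal site was called higher in 12.6% of these genes (710) and the distal site in 31.0% (1750), together 43.5%, and the median ratio was 1.30. With TMM factors, which scale proximal and distal sites separately, the median ratio was 0.51 and the split was 1047 proximal and 1179 distal genes. The call of Tardbp was lost without replicate 2 (-1.42, limma adjusted p = 0.078) and when limma's variance was fitted without a trend over the mean level (adjusted p = 0.098). The trend was adopted after tests on simulated data, so the proximal call of Tardbp rests in part on that choice. edgeR's quasi-likelihood test on recovered reads gave an adjusted p of 0.013.

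Ewsr1 ended almost wholly at its annotated end. Its most used site, at chr11:5069676, had 81.5, 77.3 and 49.8 RPM, or 82.2%, 83.1% and 82.1% of the gene (82.5% ± 0.571). The share was nearly constant although the level of the gene was lowest in replicate 3. The site lies 13 bases past the gene end, and with sites inside the gene alone the level of Ewsr1 was 14.7 RPM. A second site 54 bases upstream, at chr11:5069730, had none of the 3 hexamers named above in its last 30 bases and held 7.47%, 8.83% and 6.57% (7.62% ± 1.14).

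Another site of Ewsr1 lay at the end of a shorter annotated form. At chr11:5080421, 10732 bases before the gene end, 7.49, 4.98 and 2.35 RPM were read, or 7.56%, 5.36% and 3.87% of the gene (5.60% ± 1.86). It lies 3 bases before the end of Ewsr1-204 and 177 bases after its stop codon, and this annotated form codes for 354 residues against 655 for Ewsr1-203. The intronic site at chr11:5080144, 277 bases further on, had 0.911%, 0.941% and 4.81%, highest in replicate 3, where the share of the neighbouring terminal exon was lowest. The 2 sites together held 8.47%, 6.30% and 8.68% (7.81% ± 1.32), a narrower relative range than either alone. In the pair test the end of the gene exceeded the internal terminal exon by 3.92 (log2, SE 0.34, limma adjusted p = 6.7e-07), in 3 of 3 libraries. This pair compares 2 different last exons, and the 2 sites of the final exon gave 3.44, also a distal call.

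Taf15 used 1 site. At chr11:83506742, 1 base before the gene end and 285 bases after the stop codon of Taf15-201 (557 residues), it had 186, 168 and 206 RPM, or 99.2%, 97.0% and 94.0% of the gene (96.7% ± 2.64). None of the other 17 sites reached 5%, and 11 of the 18 were read in 1 library only. The most read intronic site, at chr11:83478507, had 0.090, 0.67 and 3.13 RPM. Intronic sites of Taf15 held 0.529%, 0.778% and 2.21% (1.17% ± 0.905), highest in replicate 3. Its 6 sites followed by A-rich sequence, where an oligo(dT) primer can anneal inside an RNA, held 2.13% of its mean level.

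Matr3 was the gene with the most dispersed ends. Its 5 sites with at least 5% of reads lie between 3029 and 2101 bases before the annotated gene end on chromosome 18, in the last exon of Matr3-201 (846 residues). The most used, at chr18:35591469, had 10.2, 8.15 and 13.0 RPM, or 28.8%, 18.6% and 26.7% of the gene (24.7% ± 5.42). The most proximal, at chr18:35590806, had 24.5%, 14.6% and 16.5% (18.5% ± 5.26), and chr18:35591419 had 11.7%, 19.0% and 17.6% (16.1% ± 3.87). The site chr18:35591469 led in replicates 1 and 3, while in replicate 2 chr18:35591419 led by a narrow margin. The remaining sites, at chr18:35591583 and chr18:35591734, held 8.70% ± 2.55 and 8.64% ± 3.96. The 9 sites within 300 bases of the most used one held 63.5% ± 5.17, so the spread was largely local. The most distal site read in every library, at chr18:35592048, had 0.255%, 2.45% and 5.69%. Of the sites of Matr3, those with AATAAA held 39.2% of its mean level and those with neither AATAAA nor ATTAAA held 52.3%. The 3 sites followed by A-rich sequence held 5.46%. Most of that was 1 site with 4.17%, read in every library and 21286 bases before the gene end. The gene shares its strand with the overlapping annotated gene Gm28285, and reads in the overlap cannot be told apart.

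No preference was called for Matr3. The distal over proximal ratio of its outer sites was -1.16 (log2, SE 0.69, limma adjusted p = 0.18), with the proximal site higher in 3 of 3 libraries. The sign depended on the pair: the 2 most used sites gave 0.42. Pairs chosen again without replicate 3 gave 0.85, but those 2 sites lie 19185 bases apart. The proximal one is then the site followed by A-rich sequence, 21286 bases before the gene end. With TMM factors the ratio of the outer sites was -2.03 and passed the threshold (limma adjusted p = 0.024). These factors scale proximal and distal sites separately and lowered the median ratio over all genes to 0.51. The sites of Matr3 are then no longer compared on the RPM scale.

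Elavl1 ended early in its annotated 3′ UTR. Its most used site, at chr8:4288345, had 122, 125 and 84.4 RPM, or 89.6%, 90.9% and 87.9% of the gene (89.5% ± 1.47). It lies 2963 bases before the gene end, 1255 bases after the stop codon and 2 bases before the end of Elavl1-204, so both coding forms over it keep the same 326 residues. Sites past it held 4.83%, 3.81% and 2.00% (3.55% ± 1.44). Most of that was the site at chr8:4284986, 396 bases beyond the annotated end, with 3.16, 3.90 and 1.78 RPM. The most read intronic site, at chr8:4296332, had 1.52%, 0% and 5.04% of the gene, so its level was set by replicates 1 and 3. The 0 of replicate 2 allows up to 0.202 RPM at 3 reads.

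**Figure D2:**
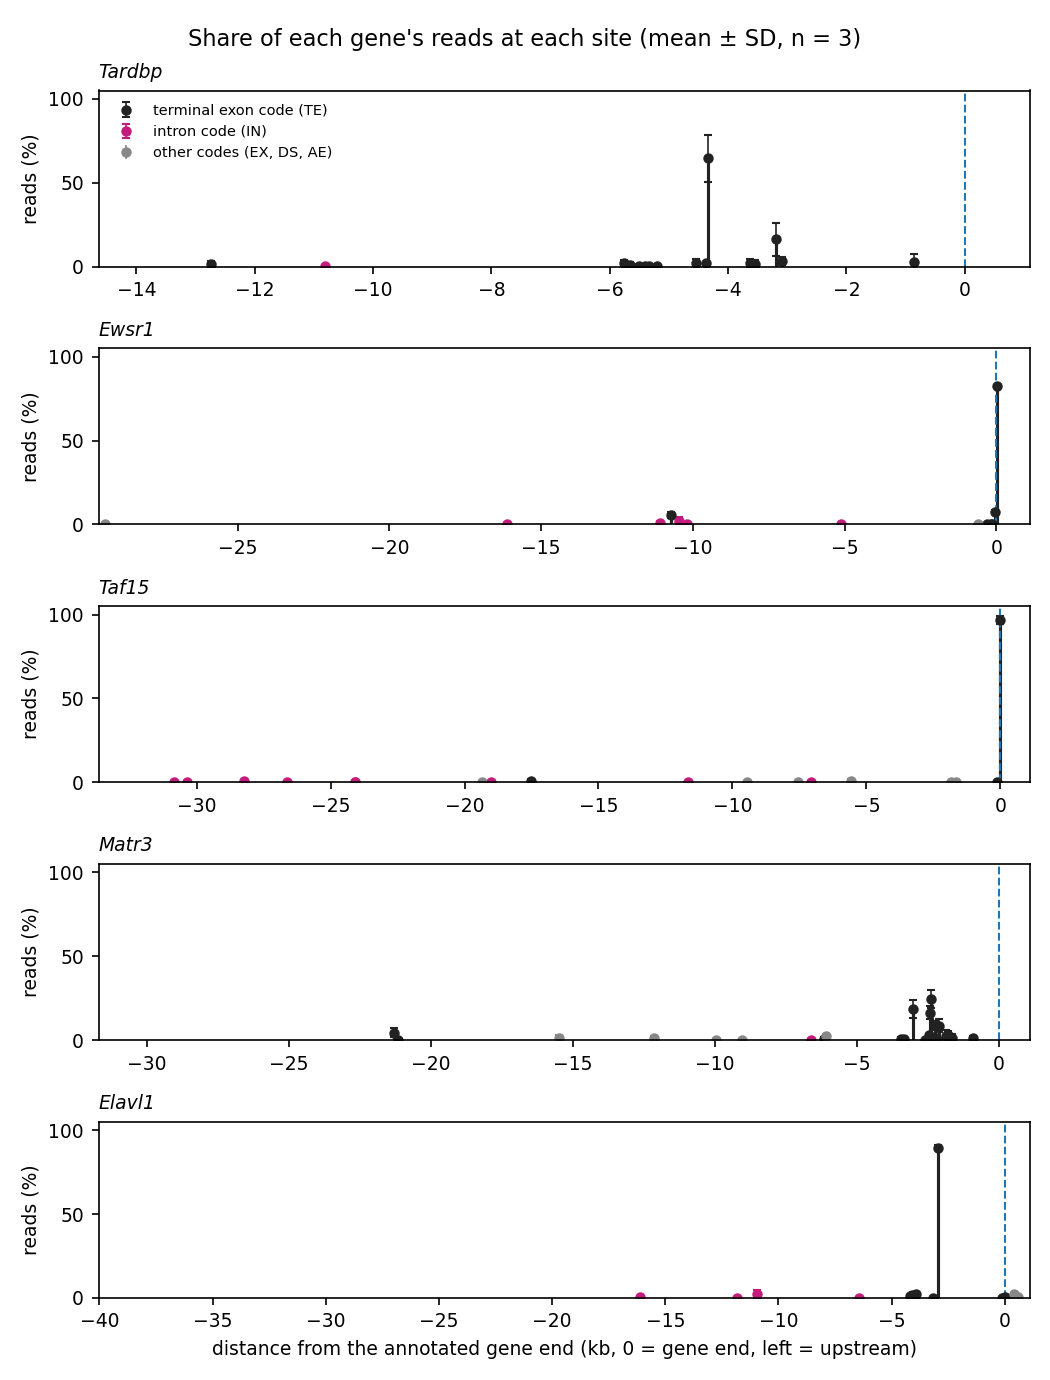
Share of each gene's reads at each site (percent, mean and SD of 3 libraries, vertical axis) against the distance from the annotated gene end (kb, horizontal axis, dashed line at 0). Taf15 and Ewsr1 peak at the gene end, Elavl1, Tardbp and Matr3 peak 2366 to 4344 bases before it, and Matr3 has no dominant site.

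Tardbp, Elavl1 and Matr3 thus share a most used site over 2000 bases before the annotated end, a property of 15.8% of the 7553 genes. The concentration of reads on 1 site separated the genes further. The most used site carried 24.5% of the mean level of Matr3, a share below which 0.543% of the 7553 genes lay. The corresponding values were 65.1% in Tardbp (24.2% of genes lower), 82.5% in Ewsr1 (42.2%), 89.6% in Elavl1 (52.9%) and 96.6% in Taf15 (70.9%). The median gene had 88.0%, so Ewsr1 and Elavl1 lay close to it.

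**Figure D3:**
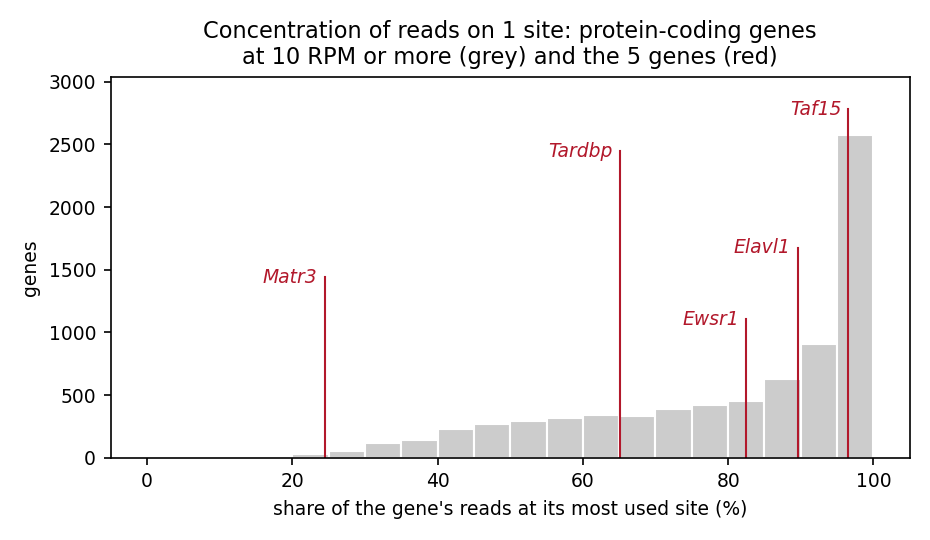
Share of a gene's mean level at its most used site (percent, horizontal axis) for 7553 protein-coding genes (grey bars, number of genes) and for the 5 genes (red lines, whose height has no meaning). Matr3 at 24.5% lies in the low tail, Tardbp at 65.1% below the median of 88.0%, and Taf15 at 96.6% in the tallest bar.

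**Figure D4:**
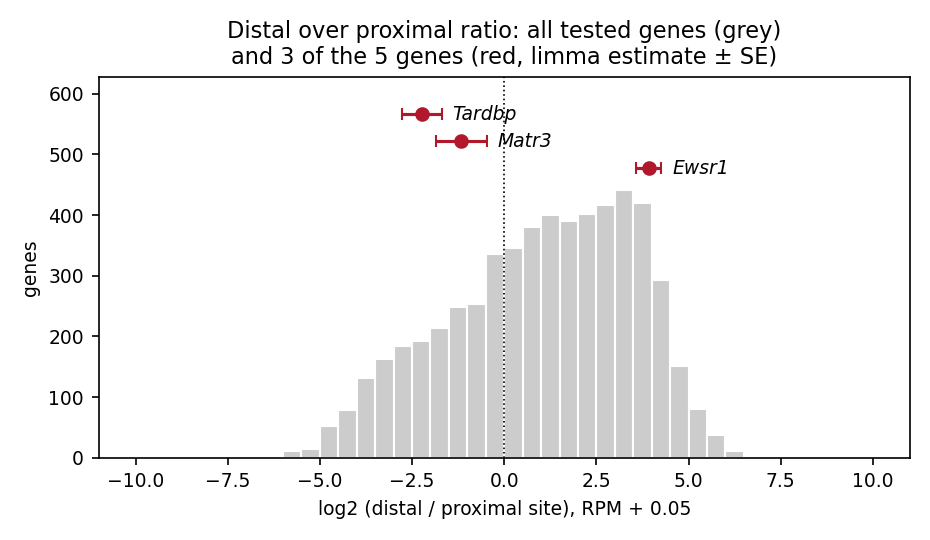
Distal over proximal ratio (log2 of RPM + 0.05, horizontal axis) for 5650 genes (grey bars, number of genes) and for Tardbp, Matr3 and Ewsr1 (red points, estimate and SE, height without meaning). Ewsr1 at 3.92 lies on the distal side, Tardbp at -2.23 and Matr3 at -1.16 on the proximal side. Taf15 and Elavl1 have 1 site of at least 5% and no pair.

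GU-rich and AU-rich stretches near the ends were counted as words, since TDP-43 and HuR bind such RNA. TGTGTG was found within 100 bases of 0 of the 12 sites with at least 5% of a member's reads, on the strand of the gene, and of 18.7% of 21193 terminal exon sites with at least 1 RPM. ATTTA was found at 3 of the 12 and at 34.7% of all. Within 50 bases TGTGTG was found at 0 of the 12 and 10.8% of all, and ATTTA at 1 of the 12 and 22.1% of all. On the other strand, within 100 bases, the shares over all sites were 6.69% and 45.4%. Sites of 1 gene can share bases of these windows, and a match is not a bound site.

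Genes that encode partners of these proteins, hnRNPs and paraspeckle proteins among them, had more proximal than distal calls, though not under every choice of sites. Of 13 such genes, each with at least 10 RPM, 9 had a pair: 6 were called proximal, 1 distal and 2 were not called, with a median ratio of -1.29. A gene of this list on X could not be tested, and its level is from replicates 1 and 2 alone. Over all 5650 genes 12.6% were called proximal and 31.0% distal, and the median was 1.30. Pspc1, a paraspeckle protein, had -3.93 (SE 0.40, limma adjusted p = 3.6e-06), and Hnrnpc, an hnRNP that binds U-rich RNA, -2.29. Hnrnpa2b1, Hnrnpa3, Hnrnpk and Hnrnpu, further hnRNPs, ran from -2.00 to -1.11, and Hnrnpl alone was distal at 3.26. Hnrnpu had 810 ± 31.0 RPM, Hnrnpa2b1 743 ± 126 and the splicing repressor Ptbp1 471 ± 6.02, all above Taf15. The excess of proximal calls was absent with sites of at least 1% and with the 2 most used sites, which each gave 3 proximal and 3 distal calls. Proximal and distal calls were 3 and 1 with sites of at least 10%, and 2 and 1 without the variance trend. With sites at least 100 bases apart they were 6 and 0, so the distal call was lost there.

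Genes of AU-rich element and other 3′ UTR binding proteins had more distal than proximal calls, as all tested genes did. Of 13 genes, 10 had at least 10 RPM and 9 had a pair: 5 were called distal, 2 proximal and 2 were not called, with a median ratio of 3.39, beside 31.0% distal, 12.6% proximal and a median of 1.30 over all genes. The distal calls were Tial1 at 4.44 (SE 0.65, limma adjusted p = 8.3e-05), Elavl2, a neuronal relative of Elavl1, at 3.66, the mRNA decay factors Zfp36 at 3.39 and Zfp36l1 at 3.12, and Pum2 at 1.45. Hnrnpd (AUF1) at -3.49 and Tia1 at -2.95 were proximal. Igf2bp1 had 419 ± 46.0 RPM, Khsrp 200 ± 27.7 and Celf1 111 ± 19.6. The 5 distal calls became 2 without replicate 2 and 1 with sites of at least 10%. They became 3 without replicate 3, with TMM factors, without the variance trend or with sites at least 100 bases apart. Elavl3, at 5.49 ± 1.09 RPM and not called above, passed as distal on log2(RPM + 0.5) and with sites of at least 1%. It also passed without the library block and without replicate 1.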

How the data were processed

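The authors deposited for each library the same list of poly(A) sites with a value in RPM, a region code and signal hexamers. The sites were made on mm10 with GENCODE M21, per the text files deposited with the libraries; which aligner and site caller made them is not given in the sources used here. The deposited RPM values gave whole read counts within 0.01 reads for 100%, 99.988% and 100% of values, and denominators of 11085428, 14855488 and 14064461 reads.

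Sites were assigned to genes on their strand. A site in the span of a member always went to the member. Other sites went to a gene by region, gene type and distance to an annotated end, and 80 tied sites were left out. The members and the genes they are ranked against thus followed different rules. Genes on autosomes were tested because replicate 3 lacks X. The pair test was limma 3.58.1 on log2(RPM + 0.05) with the library as block and a variance trend, in R 4.3.3, tested on simulated data. The trend was adopted because a fit without it called no changed gene there. The variance of the simulated counts was set in proportion to their mean, which builds in such a trend. On the deposited data the fit without the trend called 1251 of 5650 genes. edgeR 4.0.16 ran on the recovered counts. The terminal exon was taken from the authors' code TE, and the 300-base stretches were set after the data were seen. Other tables used Python 3.11.15 with pandas 2.3.3.

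The members and lists were chosen with earlier results of these data known. Named are sites with at least 5% of a gene's reads, its most read intronic and most distal site read in every library, the nearest gene by level, and of each list the called genes and the 3 highest. Of each list 1 gene, whose values had been seen, is not reported here, so the counts and the highest levels of each list are those of the other 13.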

Additional observations from a re-analysis of the deposited data

How the results depend on the processing

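The libraries form 1 group. No paired analysis was possible because there is no second group, and leaving out the library block within the pair test kept every call of the 5 genes (Tardbp -2.23). Ewsr1 stayed a distal call in every alternative that gave it a pair, from 3.04 to 4.16 (none with sites of at least 10%). Elavl1 gained a pair with sites of at least 1%, called distal at 6.71 (limma adjusted p = 7.8e-05). Its most used site is the distal one of that pair. Over all genes the 1750 distal calls became 919 with sites of at least 10%, 3638 with sites of at least 1% and 905 without the variance trend. They ranged from 1090 to 1425 with 1 library left out, and to 1572 with pairs chosen again. The 710 proximal calls became 458 and 346 with sites of at least 10% and without the trend, and 492 to 642 with 1 library left out. Tardbp went to 0.28 with sites of at least 1% (limma adjusted p = 0.92). That pair lies 11893 bases apart, with the proximal site read in replicate 2 alone and the distal site in replicate 3 alone. Matr3 reversed to 0.42 with sites of at least 10% and with the 2 most used sites. Pairs chosen again without replicate 3 took Matr3 to 0.85, with a proximal site followed by A-rich sequence. With sites of at least 10%, Hnrnpc reversed to 1.38, Hnrnpu to 0.18 and Pum2 to -0.018. With sites of at least 1%, Hnrnpa3 reversed to 3.31, Hnrnpc to 0.56, Pspc1 to 3.29, Tia1 to 2.21 and Zfp36l1 to -1.21. With the 2 most used sites, Hnrnpc reversed to 1.38, Hnrnpk to 0.070 and Sfpq to 1.63. Hnrnpu reversed to 0.18 with tandem sites of 1 exon, Ptbp1 to -0.21 with TMM factors, Sfpq to 0.062 without replicate 1 (-0.063 without replicate 2), and Hnrnpc to 1.25 and 1.37 with pairs chosen again without replicates 2 and 3. These settings of site share and pairs compare other sites of the gene. TMM factors scaled proximal and distal sites separately, which moved the median ratio over all genes from 1.30 to 0.51. For the rest the cause was not tested. The fit without the trend and the exon definitions were added after seeing the data. Leaving out a library was first run with pairs chosen again; keeping the pairs was adopted after the reversal of Matr3 there was seen. Tardbp and Matr3 had 375 to 686 reads per library, which limits their site shares.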

Other observations

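On the strand opposite to the 5 genes, over the same spans, few reads were listed. Tardbp had 3 such sites with 0.361, 0.673 and 1.78 RPM in replicates 1, 2 and 3, none of them read in every library, and the largest lies in the neighbouring gene Masp2, at chr4:148614725. Ewsr1 and Elavl1 had 1 site each, read in replicate 2 alone at 0.067 RPM, and Taf15 and Matr3 had none.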
